A study of Mus musculus with 12 samples.

Results

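Transcripts of 6 genes that buffer, sense and carry zinc were followed in BV2 cells, an immortalized line of mouse microglia. They were chosen by name, with earlier results of these data known. They are the metallothioneins Mt1 and Mt2, the transcription factor Mtf1, the exporter Slc30a1 and the importers Slc39a10 and Slc39a14. These are 6 of the 43432 gene identifiers in the tables, and all 6 were among the 12705 genes with enough reads to be tested.

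Each of 6 groups held 2 libraries. Cells were seeded, left for 24 h, and then kept without serum for at least 4 h. Of the groups, 2 received 10 or 30 µM 6-shogaol and 2 received 10 or 30 µM 6-gingerol, and 1 h later all 4 received lipopolysaccharide (LPS), the bacterial endotoxin that activates microglia, at 100 ng/mL. Of the other groups, 1 received LPS alone and 1 was untreated. Both compounds are pungent phenols of ginger, and 6-shogaol has lost a molecule of water relative to 6-gingerol, which leaves it with an α,β-unsaturated ketone. The time from LPS to harvest is not given in the sources used here, and neither is whether the replicates were separate cultures, so p-values measure the spread between these libraries, which may be technical.

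Metallothioneins are small, cysteine-rich proteins of the cytosol that bind zinc and copper. MTF-1, the product of Mtf1, is a zinc-finger protein that responds to free zinc by binding metal response elements in DNA, and it drives Mt1, Mt2 and Slc30a1. Carriers of the SLC30 family (ZnT) take zinc out of the cytosol, across the cell surface or into organelles, and carriers of the SLC39 family (ZIP) bring it in. In macrophages and microglia, zinc handling is part of the response to bacterial products.

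Mt1 and Mt2 lie side by side on chromosome 8, and the RefSeq sequence around their starts is shown because both genes rose with 30 µM 6-shogaol, with that of Slc30a1, a gene of the same regulator that did not pass the test with either compound against LPS. Each window runs from 250 bases before to 50 bases after the start of the RefSeq gene (build GRCm38.p6, plus strand), and capitals mark the core of the metal response element, TGCACNC or TGCGCNC, read on both strands. The windows are chr8:94178839-94179138 for Mt1, chr8:94172368-94172667 for Mt2 and chr1:191906531-191906830 for Slc30a1.
Mt1: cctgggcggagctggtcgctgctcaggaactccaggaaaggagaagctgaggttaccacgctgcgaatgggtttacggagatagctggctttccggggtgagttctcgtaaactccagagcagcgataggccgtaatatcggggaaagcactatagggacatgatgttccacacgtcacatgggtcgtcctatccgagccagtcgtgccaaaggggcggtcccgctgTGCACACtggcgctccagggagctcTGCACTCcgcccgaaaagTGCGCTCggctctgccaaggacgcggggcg
Mt2: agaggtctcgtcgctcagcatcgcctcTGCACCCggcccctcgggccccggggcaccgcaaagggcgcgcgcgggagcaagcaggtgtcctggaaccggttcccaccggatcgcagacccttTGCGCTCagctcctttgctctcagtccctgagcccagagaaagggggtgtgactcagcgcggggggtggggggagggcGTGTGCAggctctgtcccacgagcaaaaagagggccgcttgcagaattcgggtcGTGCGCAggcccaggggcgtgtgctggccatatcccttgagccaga
Slc30a1: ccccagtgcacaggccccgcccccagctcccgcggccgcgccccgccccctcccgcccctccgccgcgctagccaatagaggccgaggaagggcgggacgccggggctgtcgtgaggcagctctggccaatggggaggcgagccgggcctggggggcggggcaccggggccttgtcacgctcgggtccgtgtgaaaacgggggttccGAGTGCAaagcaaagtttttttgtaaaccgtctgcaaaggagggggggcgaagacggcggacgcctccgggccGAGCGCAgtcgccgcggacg

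The Mt1 window held 3 such cores, which began 23 bases before the start and 3 and 21 bases after it. The Mt2 window held 4, the last beginning 5 bases after the start, and the Slc30a1 window 2, the last beginning 31 bases after it. The window of Mtf1 and both windows of Slc39a10 held 0. These windows with 0 cores do not cover the annotated start of their gene. For Slc39a10 that start is 46892852, and the windows are chr1:46925727-46926026 and chr1:46853569-46853868. For Mtf1 it is 124802104, and the window is chr4:124802299-124802598. Of 32851 RefSeq windows of the same length, 25.7% held at least 1 core and 1.97% held 3 or more. The core of the antioxidant response element, TGACNNNGC on either strand, was in the Mt2 and Slc30a1 windows once each, without overlap with a metal core, and in 12.4% of all windows. No window was matched for Slc39a14. A match is a match of letters, and binding was not measured. Sequence outside the windows, including that downstream of the Mt1 window, was not searched, so the counts hold for the windows alone.

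The libraries held 16534960 to 21179867 expected counts each, and the mean fragment length of a library from 223 to 252 bases. Levels below are CPM, reads scaled to a common library size with TMM factors, unless TPM is named. TPM is the authors' value, divided by transcript length and without TMM factors, and serves to compare genes. Microglia markers were read in all libraries: 11 of 11 passed the count filter, with a summed level of 2037 to 2287 CPM. P2ry12, which marks resting microglia in tissue, stayed below 1 CPM in every library, and Cx3cr1 reached at most 1.09 CPM. Neuronal markers (4 of 4) and lymphocyte markers (3 of 3) were below 1 CPM in every library.

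Both metallothioneins were among the abundant transcripts of these cells. Mean TPM over the 12 libraries was 748 for Mt1 (ENSMUSG00000031765, GRCm38 chromosome 8, 94179082 to 94180327, plus strand), rank 172 of all genes, and 673 for Mt2 (ENSMUSG00000031762, chromosome 8, 94172664 to 94173568, plus strand), rank 187. The genes are 5513 bases apart. The other members were present at far lower levels, with mean TPM of 11.1 for Slc39a14, 9.39 for Mtf1, 8.81 for Slc39a10 and 6.10 for Slc30a1. Mt1 and Mt2 shared no run of 50 bases with each other or with another annotated transcript read in the same direction. Their counts were whole numbers in every library.

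**Figure D1:**
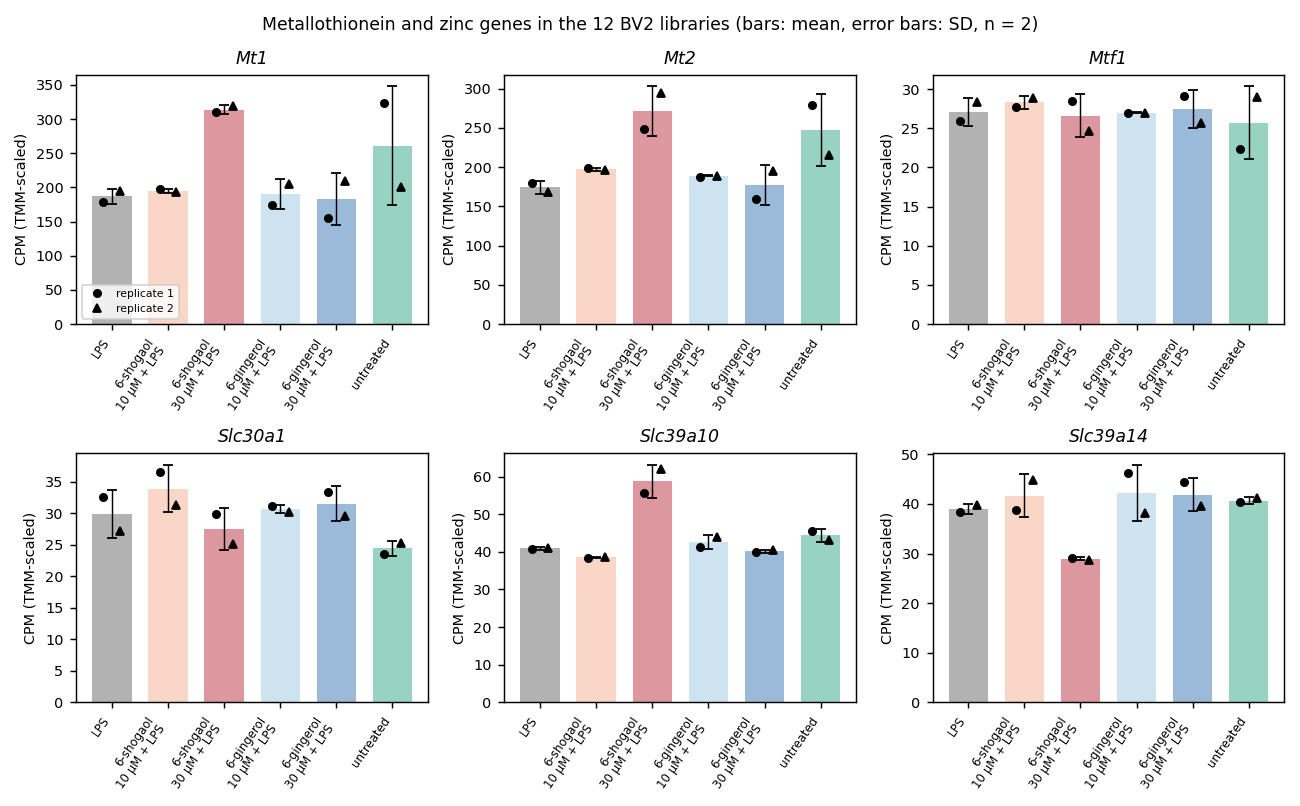
CPM of the 6 genes by group; bars are means of 2 libraries, error bars the SD, and points the libraries. Mt1, Mt2 and Slc39a10 were highest on average with 30 µM 6-shogaol and LPS, Slc39a14 was lowest there, and for Mt1 and Mt2 the untreated libraries were far apart (323 and 199.9 CPM for Mt1).

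The first question was what each compound did in LPS-treated cells. With 30 µM 6-shogaol, Mt1, Mt2 and Slc39a10 rose above LPS alone and the read count of Slc39a14 fell, so that 4 of 6 members were called at an adjusted p under 0.05. Among all genes tested, 25.4% were called in this contrast, 12.6% higher and 12.8% lower. The members were chosen with earlier results known, so 4 of 6 is no test of the set against all genes. With 10 µM 6-shogaol 0 members were called, where 0.638% of all genes were (81 of 12705). That count over all genes moved with the setting, to 970 of 12281 when the compared groups alone were fitted and to 18 of 12958 without replicate 2 of 10 µM 6-shogaol, with 0 members called in each. With 6-gingerol at 10 and at 30 µM 0 members were called either, and edgeR called 0 of all genes (0% at each dose). In these contrasts 243 genes (1.91%) at 10 µM and 189 genes (1.49%) at 30 µM had an unadjusted p under 0.05. DESeq2 called 0 genes at 10 µM and 2 at 30 µM, and limma on the authors' normalized table called 0 at each. Without the filter on low counts, edgeR called 28 of 20036 genes at 10 µM and 27 at 30 µM.

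Mt1 had 309.9 and 319 CPM in the libraries with 30 µM 6-shogaol and LPS, against 179 and 194 CPM with LPS alone. The libraries of the groups did not overlap. With 2 libraries a group that also happens without a call, as for Slc39a10 with 10 µM 6-gingerol against LPS. The share of such genes among all genes was not counted. The log2 fold change was 0.75 (SE 0.18, 95% interval 0.36 to 1.15), which is 1.68-fold, with an adjusted p of 0.00814 by the edgeR quasi-likelihood test with Benjamini-Hochberg adjustment over all 12705 genes. That call was lost without LPS replicate 1, where the log2 fold change was 0.70 and the adjusted p 0.0745. In bulk RNA, more cells that use a gene and more RNA per cell cannot be told apart.

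Mt2 was read at 249 and 294 CPM with 30 µM 6-shogaol and LPS, against 180.0 and 168 CPM with LPS alone. Both shogaol libraries lay above both LPS libraries, and the log2 fold change was 0.64 (SE 0.13, edgeR adjusted p = 0.00229), or 1.56-fold. It was called under each of the 13 alternatives run, with adjusted p between 1.58e-06 and 0.0351. Summed over both genes, metallothionein transcripts made up 1887 and 2085 TPM with 30 µM 6-shogaol and LPS, against 1099.6 and 1133 TPM with LPS alone.

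At 10 µM 6-shogaol neither metallothionein passed the test against LPS. Mt1 had 197 and 193 CPM, a log2 fold change against LPS of 0.06 (95% interval -0.33 to 0.45). Mt2 had 199 and 196 CPM, a log2 fold change of 0.18 (-0.10 to 0.46), and both libraries lay above those with LPS alone without the difference passing the test (edgeR adjusted p = 0.612). In TPM both genes lay above LPS alone without overlap: Mt1 had 700.3 and 713 TPM with 10 µM 6-shogaol and LPS, against 562 and 621 TPM with LPS alone, and Mt2 had 672 and 688 TPM, against 538 and 512 TPM. So did Slc30a1, Mtf1 and Slc39a14, with log2 ratios of mean TPM of 0.29, 0.27 and 0.42, against 0.26 for Mt1 and 0.37 for Mt2. The separation in TPM was thus not particular to the metallothioneins. The share of all genes that separated in TPM was not counted. TPM has no TMM factors, and scaling by library totals put the median log2 fold change of all genes in this contrast at 0.07 (-0.00 with TMM). The fragments were 247 and 248 bases long in the 10 µM 6-shogaol libraries, against 237 and 223 bases with LPS alone. With fragment length as a covariate in edgeR the log2 fold changes were 0.37 (adjusted p = 0.55) for Mt1 and 0.30 (adjusted p = 0.823) for Mt2.

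With 6-gingerol, neither gene passed the test at either dose. Mt1 had 174 and 205 CPM at 10 µM and 155 and 210.0 CPM at 30 µM, both pairs spanning the 179 and 194 CPM of LPS alone, with log2 fold changes of 0.02 (-0.37 to 0.42) and -0.03 (-0.42 to 0.36). Mt2 had 188 and 189 CPM at 10 µM and 159 and 195 CPM at 30 µM, with log2 fold changes of 0.12 (-0.16 to 0.40) and 0.02 (-0.25 to 0.30). These intervals leave room for a rise of Mt1 of up to 0.42 on the log2 scale at 10 µM, so the libraries do not show that 6-gingerol left the metallothioneins as they were.

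Slc39a10 encodes ZIP10, a zinc importer of the cell surface that MTF-1 is known to repress in mouse cells. The gene (ENSMUSG00000025986) lies on chromosome 1, 46807544 to 46892852, minus strand, and 0.447% of its runs of 50 bases also occur in Gm6801, which had 0 CPM. Its level was 55.6 and 61.9 CPM with 30 µM 6-shogaol and LPS, against 40.7 and 41.1 CPM with LPS alone, so that the groups stood well apart. The log2 fold change was 0.52 (SE 0.10, 95% interval 0.31 to 0.73, edgeR adjusted p = 0.00131), and it was called under all 13 alternatives run, with log2 fold changes of 0.43 to 0.60. Its TPM showed the same order, 11.2 and 12.2 with 30 µM 6-shogaol and LPS against 7.40 and 8.90 with LPS alone. At 10 µM 6-shogaol it had 38.4 and 38.6 CPM, and with 6-gingerol 41.2 and 44.0 CPM at 10 µM and 39.9 and 40.4 CPM at 30 µM, none of them called against LPS.

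Slc39a14 encodes ZIP14, an importer of zinc, manganese and iron that is induced by interleukin-6 in the liver. The gene (ENSMUSG00000022094) lies on chromosome 14, 70303469 to 70351425, minus strand. It had 29.2 and 28.8 CPM with 30 µM 6-shogaol and LPS, against 38.3 and 39.8 CPM with LPS alone, a log2 fold change of -0.43 (SE 0.12, edgeR adjusted p = 0.016). The shogaol libraries were the lowest of all 12. In TPM the gene had 11.2 and 8.03 with 30 µM 6-shogaol and LPS, against 9.19 and 9.55 with LPS alone. On that scale the groups overlapped, with 1 shogaol library above both LPS libraries and the other below both.

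The difference between the scales goes with the transcript length that RSEM, the authors' quantification tool, assigned to Slc39a14 in each library. This length was 2999 and 3963 bases with 30 µM 6-shogaol and LPS, against 4219.7 and 4464 bases with LPS alone. Over the 12 libraries it varied 1.49-fold, as did that of Mtf1 (1.46-fold), against 1.03-fold for Slc30a1, 1.12-fold for Slc39a10 and 1.00-fold for each metallothionein. With the effective length of each library as an offset in edgeR, an alternative chosen after seeing the data, the log2 fold change of Slc39a14 was -0.06 (adjusted p = 0.83). Limma on the authors' own normalized table gave -0.05 (adjusted p = 0.862). When any 1 of the 4 libraries was left out, the log2 fold change on read counts was -0.45 to -0.40 and the adjusted p 0.0624 to 0.102.

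**Figure D2:**
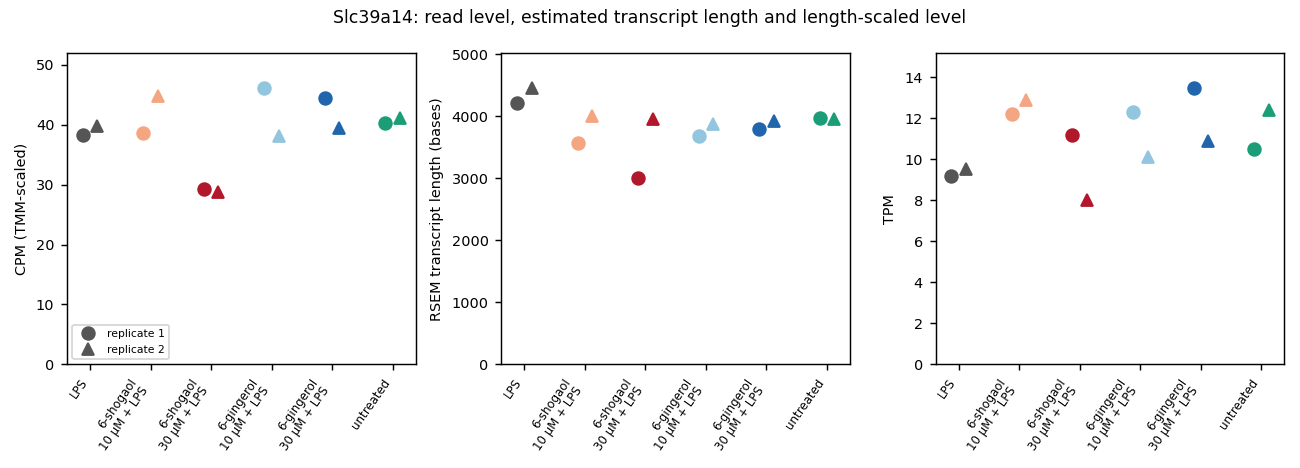
Slc39a14 in each library as CPM, as the transcript length assigned by RSEM in bases, and as TPM. With 30 µM 6-shogaol and LPS the CPM (29.2 and 28.8) lay below those of all other libraries, whereas the TPM (11.2 and 8.03) spanned those of LPS alone (9.19 and 9.55).

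Slc30a1 and Mtf1 did not pass the test in any of the 4 contrasts against LPS. Slc30a1 encodes ZnT1, the zinc exporter of the plasma membrane (ENSMUSG00000037434, chromosome 1, 191906767 to 191913247, plus strand). It had 29.9 and 25.1 CPM with 30 µM 6-shogaol and LPS, against 32.6 and 27.2 CPM with LPS alone, with overlap and a log2 fold change of -0.12 (95% interval -0.40 to 0.16). A rise of Slc30a1 as large as the 0.64 of Mt2 lies outside that interval. Mtf1 (ENSMUSG00000028890, chromosome 4, 124802104 to 124849800, plus strand) had 28.5 and 24.6 CPM with 30 µM 6-shogaol and LPS, against 25.9 and 28.4 CPM with LPS alone, a log2 fold change of -0.03 (-0.32 to 0.25). The direction for Mtf1 turned with the transcript length: its TPM was 10.1 and 10.2 with 30 µM 6-shogaol and LPS, against 7.97 and 8.73 with LPS alone, without overlap, and the length offset gave 0.19 (edgeR adjusted p = 0.426). For both genes RSEM gave counts that were not whole in every library, as RSEM gives where it divides reads between genes. Neither shared a run of 50 bases with another annotated transcript read in the same direction. Reverse complements were not searched.

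**Figure D3:**
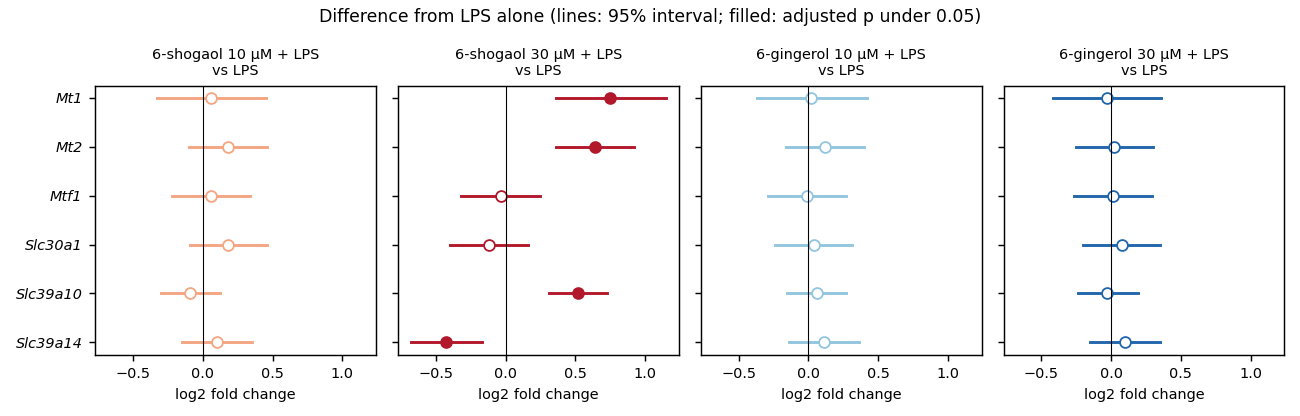
Log2 fold change of each gene against LPS alone with its 95% interval, for each compound and dose. Filled points passed the test, which 4 genes did with 30 µM 6-shogaol (Mt1 0.75, Mt2 0.64, Slc39a10 0.52 and Slc39a14 -0.43) and 0 did in the other 3 panels.

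Other markers in the libraries moved in this contrast too. The astrocyte list (6 genes, 5 of them below 1 CPM in every library and Aqp4 at 0) summed to 8.73 to 10.2 CPM with 30 µM 6-shogaol and LPS, against 15.8 to 17.0 CPM with LPS alone and 6.14 to 6.16 CPM untreated, nearly all of it Gja1, a gap junction gene. The oligodendrocyte list (4 genes, Mog and Olig2 at 0) summed to 1.10 to 1.52 CPM, against 2.60 to 3.14 CPM with LPS alone. Markers of fibroblasts and endothelium (5 genes, Col1a2 and Dcn at 0) summed to 0.366 to 0.507 CPM, against 2.0 to 2.33 CPM with LPS alone. Their part in the results was not tested.

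The second question was whether 6-shogaol and 6-gingerol differed at the same dose, and 12 differences, 6 genes at each of 2 doses, were tested. At 30 µM the same 4 members were called as against LPS, where 25.0% of all genes were called, 12.5% higher and 12.4% lower with 6-shogaol. The 30 µM 6-shogaol libraries serve in both of these contrasts, so the calls are not independent. At 10 µM 0 members were called, where 0.638% of all genes were.

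Mt1 at 30 µM had 309.9 and 319 CPM with 6-shogaol, against 155 and 210.0 CPM with 6-gingerol, a log2 fold change of 0.78 (SE 0.18, edgeR adjusted p = 0.00669). For Mt2 the values were 249 and 294 CPM with 6-shogaol, against 159 and 195 CPM with 6-gingerol, and the log2 fold change 0.62 (SE 0.13, edgeR adjusted p = 0.0031). Slc39a10 had 55.6 and 61.9 CPM with 6-shogaol, against 39.9 and 40.4 CPM with 6-gingerol, 0.55 on the log2 scale (SE 0.10, edgeR adjusted p = 0.000924). For these genes, and for Slc39a14, the libraries of the compounds did not overlap in CPM.

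Without replicate 1 of 30 µM 6-gingerol, which had the lowest Mt1 and Mt2 of all libraries, the calls of Mt1 (0.58, edgeR adjusted p = 0.073), Mt2 (0.47, adjusted p = 0.0518) and Slc39a14 (-0.45, adjusted p = 0.0525) were lost. Slc39a10 was called under all 13 alternatives. Slc39a14 had a log2 fold change of -0.53 (edgeR adjusted p = 0.00443) on read counts, and of -0.35 (adjusted p = 0.132) with the effective length as an offset. The difference at 30 µM had an interval of -0.47 to 0.08 for Slc30a1 and of -0.33 to 0.24 for Mtf1.

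At 10 µM the intervals of 6-shogaol against 6-gingerol were -0.35 to 0.43 for Mt1, -0.21 to 0.34 for Mt2, -0.36 to 0.06 for Slc39a10 and -0.26 to 0.24 for Slc39a14. For Slc30a1 and Mtf1 they were -0.13 to 0.42 and -0.21 to 0.35. No member passed the test, which does not show that the compounds acted alike on these genes at 10 µM.

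The step between doses was the third question. From LPS alone through 10 µM to 30 µM 6-shogaol, mean Mt1 was 187, 195 and 314 CPM, mean Mt2 174, 197 and 271 CPM, and mean Slc39a10 40.9, 38.5 and 58.7 CPM. Between 30 and 10 µM 6-shogaol, 4 members were called: Mt1 at 0.69 (SE 0.18, edgeR adjusted p = 0.0174), Mt2 at 0.46 (SE 0.13, adjusted p = 0.0233), Slc39a10 at 0.61 (SE 0.10, adjusted p = 0.000649) and Slc39a14 at -0.53 (SE 0.12, adjusted p = 0.0065). Of all genes, 19.4% were called. The 30 µM 6-shogaol libraries are again those of the contrast against LPS.

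The call of Slc39a10 for this step held under all 13 alternatives. Those of the other members did not: Mt1 was lost when any 1 of the 4 libraries was left out (log2 fold change 0.67 to 0.71, adjusted p 0.0637 to 0.113), Mt2 without either 10 µM library or without replicate 2 of 30 µM 6-shogaol (0.33 to 0.47, adjusted p 0.111 to 0.212), and Slc39a14 without replicate 2 of 30 µM (-0.52, adjusted p = 0.0512) or 10 µM 6-shogaol (-0.42, adjusted p = 0.0976) and with the length offset (-0.37, adjusted p = 0.125). Slc30a1 had a log2 fold change of -0.30 (interval -0.58 to -0.03) that did not pass the test after adjustment (edgeR adjusted p = 0.117).

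Between 30 and 10 µM 6-gingerol 0 members were called, and 1 gene in all (0.00787%). The step of 6-shogaol minus the step of 6-gingerol, the test of whether the dose mattered differently for the compounds, was called for Slc39a10, at 0.70 on the log2 scale (SE 0.14, 95% interval 0.40 to 0.99, edgeR adjusted p = 0.00817), where 8.17% of all genes were called. It was lost without replicate 2 of 10 µM 6-shogaol (0.69, adjusted p = 0.0512) and without replicate 2 of 30 µM 6-shogaol (0.61, adjusted p = 0.0525). Mt1 (0.74, adjusted p = 0.0915), Mt2 (0.55, adjusted p = 0.0802) and Slc39a14 (-0.52, adjusted p = 0.0695) did not pass.

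The fourth question was what LPS itself did. Mt2 had 180.0 and 168 CPM with LPS, against 279 and 215 CPM in untreated cells, a log2 fold change of -0.50 (SE 0.13, edgeR adjusted p = 0.0188), and it was the 1 member called. Of all genes 11.8% were called, and 4.16% were called lower with LPS. Mt1 had 179 and 194 CPM with LPS, against 323 and 199.9 CPM in untreated cells, a log2 fold change of -0.48 (95% interval -0.88 to -0.09) that did not pass the test (edgeR adjusted p = 0.111).

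Both values turn on untreated replicate 1. Without it, the log2 fold change of Mt1 was -0.10 (adjusted p = 0.724) and that of Mt2 -0.30 (adjusted p = 0.133). The Mt2 call was also lost without LPS replicate 1 (-0.56, adjusted p = 0.076) or 2 (-0.46, adjusted p = 0.166), and without untreated replicate 2 that of Mt1 was gained (-0.76, adjusted p = 0.00164). In TPM the groups did not overlap for either gene: Mt1 had 562 and 621 TPM with LPS, against 999 and 763 TPM untreated, and Mt2 had 538 and 512 TPM, against 823 and 777 TPM. The same was true of Mtf1 and Slc39a14, with log2 ratios of mean TPM of -0.30 and -0.29, neither of them called on read counts. How many of all genes separated in TPM was not counted.

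The untreated libraries differed in fragment length, with 227 bases in replicate 1 and 248 bases in replicate 2. Mt1 and Mt2 transcripts are 540.0 and 556 bases long, and fragment length bears on how many fragments a short transcript can give. The log2 CPM of Mt1 in the library with the longer fragments minus the other was -0.69 untreated, -0.44 with 30 µM 6-gingerol, -0.24 with 10 µM 6-gingerol, -0.12 with LPS and 0.04 with 30 µM 6-shogaol. For Mt2 these differences were -0.38, -0.30, -0.01, 0.10 and 0.24 in the same order of groups. The 10 µM 6-shogaol libraries, which differed by 0.970 bases, gave -0.03 for Mt1 and -0.02 for Mt2. In TPM, which takes the fragment length into account, the untreated difference was -0.39 for Mt1 and -0.08 for Mt2.

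Among the 417 tested genes under 600 bases, the median log2 difference of the longer-fragment library from the other was -0.25 in the untreated group, -0.22 with 30 µM 6-gingerol, -0.14 with 10 µM 6-shogaol, -0.11 with 30 µM 6-shogaol, -0.04 with 10 µM 6-gingerol and 0.07 with LPS. These medians did not follow the fragment lengths closely, since the libraries differed by 21.2 bases with 10 µM 6-gingerol and by 0.970 bases with 10 µM 6-shogaol. The 30 µM 6-shogaol libraries had fragments of 236 and 244 bases, against 237 and 223 bases with LPS alone. With fragment length as a covariate in edgeR, 30 µM 6-shogaol against LPS gave 0.93 (adjusted p = 3.54e-05) for Mt1 and 0.71 (adjusted p = 0.000616) for Mt2. With the same covariate, LPS against untreated gave -0.58 (adjusted p = 0.00265) for Mt1 and -0.54 (adjusted p = 0.00607) for Mt2.

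**Figure D4:**
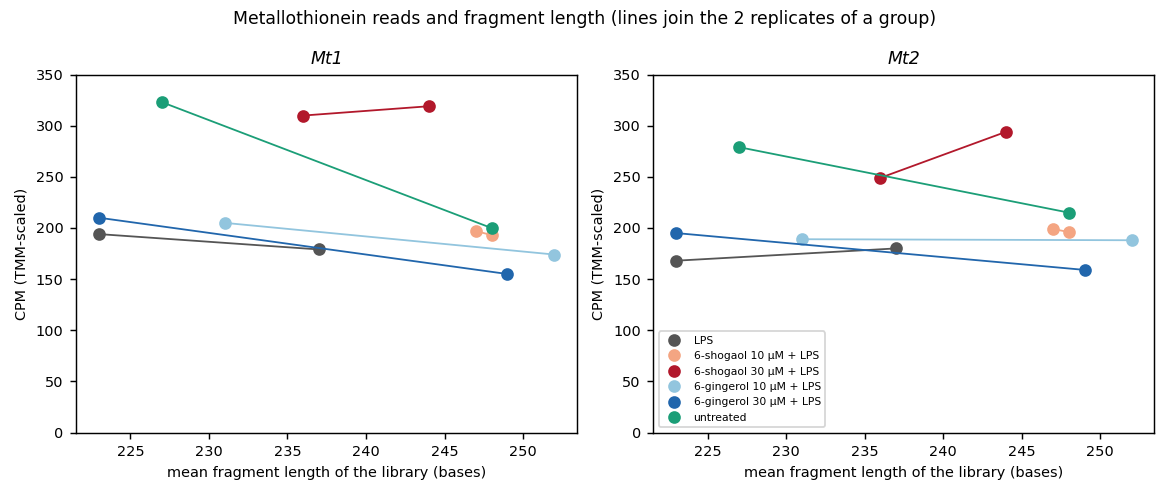
CPM of Mt1 and Mt2 against the mean fragment length of each library, with lines joining the 2 replicates of a group. The 30 µM 6-shogaol libraries (236 and 244 bases) lay above the LPS libraries (237 and 223 bases), and the untreated replicate with 248 bases lay well below that with 227 bases.

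The other members were not called between LPS and untreated cells. Slc30a1 had 32.6 and 27.2 CPM with LPS, against 23.5 and 25.3 CPM untreated, without overlap and with a log2 fold change of 0.29 (SE 0.13, edgeR adjusted p = 0.176). Log2 fold changes were 0.08 (interval -0.20 to 0.36) for Mtf1, which the length offset turned to -0.20 (adjusted p = 0.512), -0.12 (-0.33 to 0.09) for Slc39a10 and -0.06 (-0.31 to 0.19) for Slc39a14.

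Set against untreated cells, the groups with LPS and a compound share the untreated libraries with the contrast of LPS itself. With 30 µM 6-shogaol and LPS, 2 members were called (25.4% of all genes): Slc39a10 had 55.6 and 61.9 CPM, against 45.6 and 43.2 CPM untreated (0.40, SE 0.10, edgeR adjusted p = 0.00732), and Slc39a14 had 29.2 and 28.8 CPM, against 40.3 and 41.2 CPM (-0.49, SE 0.12, adjusted p = 0.0073). Both calls were lost without replicate 2 of 30 µM 6-shogaol. That of Slc39a10 was also lost with the compared groups alone (edgeR adjusted p = 0.0658). That of Slc39a14 was also lost with limma on the authors' table (adjusted p = 0.289) and with the length offset (-0.25, edgeR adjusted p = 0.279). Mt1 and Mt2 in that group differed from untreated cells by 0.27 (interval -0.12 to 0.66) and 0.14 (-0.14 to 0.41), neither of them called.

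With 10 µM 6-shogaol and LPS, 1 member was called (8.76% of all genes), Slc30a1, with 36.6 and 31.3 CPM against 23.5 and 25.3 CPM untreated (0.47, SE 0.13, edgeR adjusted p = 0.032). This call was lost without untreated replicate 1 and without replicate 1 of 10 µM 6-shogaol. With 30 µM 6-gingerol and LPS, 1 member was called (11.4% of all genes), Mt2, at 159 and 195 CPM against 279 and 215 CPM untreated (-0.48, SE 0.13, adjusted p = 0.0261), a call that was lost without untreated replicate 1 and without replicate 1 of 30 µM 6-gingerol. With 10 µM 6-gingerol and LPS 0 members were called (13.1% of all genes), and Mt2 stood at -0.39 (adjusted p = 0.0659).

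Ordered by mean CPM over the 6 groups, Mt1 ran from 30 µM 6-shogaol (314 ± 6.19, SD, n = 2) through untreated (261 ± 86.8) to 10 µM 6-shogaol (195 ± 2.81), 10 µM 6-gingerol (189.7 ± 21.9), LPS alone (187 ± 11) and 30 µM 6-gingerol (183 ± 38.7). No neighbours in this order were called apart. Mt2 had the same first pair, 271 ± 31.8 CPM with 30 µM 6-shogaol and 247 ± 45.6 untreated, and then 197 ± 2.01 with 10 µM 6-shogaol, 189 ± 0.586 with 10 µM 6-gingerol, 177 ± 25.8 with 30 µM 6-gingerol and 174 ± 8.47 with LPS alone, and again no neighbours were called apart. The ratio of Mt1 to Mt2 in TPM stayed between 0.98 and 1.31 in all libraries.

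The order of Slc39a10 was 58.7 ± 4.46 CPM with 30 µM 6-shogaol, 44.4 ± 1.73 untreated, 42.6 ± 1.96 with 10 µM 6-gingerol, 40.9 ± 0.317 with LPS, 40.2 ± 0.380 with 30 µM 6-gingerol and 38.5 ± 0.177 with 10 µM 6-shogaol. The first group was called above the second, and no other neighbours in that order that were tested were called apart. Slc39a14 had 39.0 ± 1.09 to 42.2 ± 5.72 CPM in 5 groups and 29.0 ± 0.321 CPM with 30 µM 6-shogaol. Slc30a1 ran from 24.4 ± 1.24 CPM untreated to 33.9 ± 3.78 CPM with 10 µM 6-shogaol, and Mtf1 from 25.7 ± 4.64 CPM untreated to 28.3 ± 0.814 CPM with 10 µM 6-shogaol.

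The rest of the zinc family was looked at through 23 further genes, the other metallothioneins and the other ZnT and ZIP carriers, of which 16 had enough reads to be tested. Mt3, Mt4, Slc30a8, Slc30a10, Slc39a5 and Slc39a12 had 0 counts in every library. With 30 µM 6-shogaol against LPS, 2 of 16 rose and 4 fell, where 12.6% of all genes were called higher and 12.8% lower, so the share that rose was near that of all genes. The median log2 fold change was -0.07 over the 16, 0.24 over the 6 members and -0.00 over all genes. The members and the lists here and below were chosen with earlier results known, so shares and medians do not test them as sets. No gene of the list was called with 6-gingerol at either dose or with 10 µM 6-shogaol.

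The genes that rose encode carriers of the importing SLC39 family, as do Slc39a8, Slc39a6 and Slc39a2 among those that fell. Slc39a4 encodes ZIP4, the importer of dietary zinc in the gut, and had 120.0 and 101 CPM with 30 µM 6-shogaol and LPS, against 80.0 and 75.8 CPM with LPS alone (0.50, SE 0.12, edgeR adjusted p = 0.00756). Slc39a9 encodes ZIP9, a carrier of the Golgi and cell surface, and had 85.6 and 80.2 CPM, against 63.4 and 57.6 CPM with LPS alone (0.46, SE 0.11, adjusted p = 0.0066). The groups did not overlap for either gene.

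Of the genes that fell, Slc39a8 moved most. It encodes ZIP8, an importer that NF-kB induces in immune cells, and was scarce: 2 and 5 counts with 30 µM 6-shogaol and LPS, against 14 and 26 counts with LPS alone, a log2 fold change of -2.33 (SE 0.51, edgeR adjusted p = 0.00374). Slc39a8 had 14 to 26 counts in the libraries of LPS alone and of 6-gingerol, and at most 9 in any other. It thus passed the count filter through the groups where it was high. Its call carries no weight here, although it is counted among the genes that fell. Slc30a4 (ZnT4, of endosomes and lysosomes) had 75.4 and 88.5 CPM, against 110.3 and 108 CPM with LPS alone (-0.41, adjusted p = 0.00638). Slc39a6 (ZIP6) had 66.7 and 69.6 CPM, against 94.2 and 87.7 CPM (-0.42, adjusted p = 0.00514), and Slc39a2 (ZIP2) had 7.45 and 7.27 CPM, against 9.93 and 10.2 CPM (-0.45, adjusted p = 0.0327).

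Between 30 µM 6-shogaol and 30 µM 6-gingerol, 5 of the 16 were called, where 25.0% of all genes were, each of them in the direction it had against LPS: Slc39a4 (0.58), Slc39a9 (0.41), Slc39a8 (-2.21), Slc30a4 (-0.43) and Slc39a6 (-0.44). The shogaol libraries serve in both contrasts. Between LPS and untreated cells, 2 of the 16 were called (12.5%), close to the 11.8% of all genes, both higher with LPS: Slc39a2, with 9.93 and 10.2 CPM against 5.39 and 5.54 CPM untreated (0.88, SE 0.15, edgeR adjusted p = 0.000727), and Slc39a8, with 14 and 26 counts against 7 and 9 counts untreated (1.42, SE 0.43, adjusted p = 0.0453). Of the 16, 1 was called between 30 and 10 µM 6-shogaol, Slc30a4 (-0.41), where 19.4% of all genes were. Slc39a8, which passed the count filter through the groups where it was high, is counted in the 5 and in the 2.

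**Figure D5:**
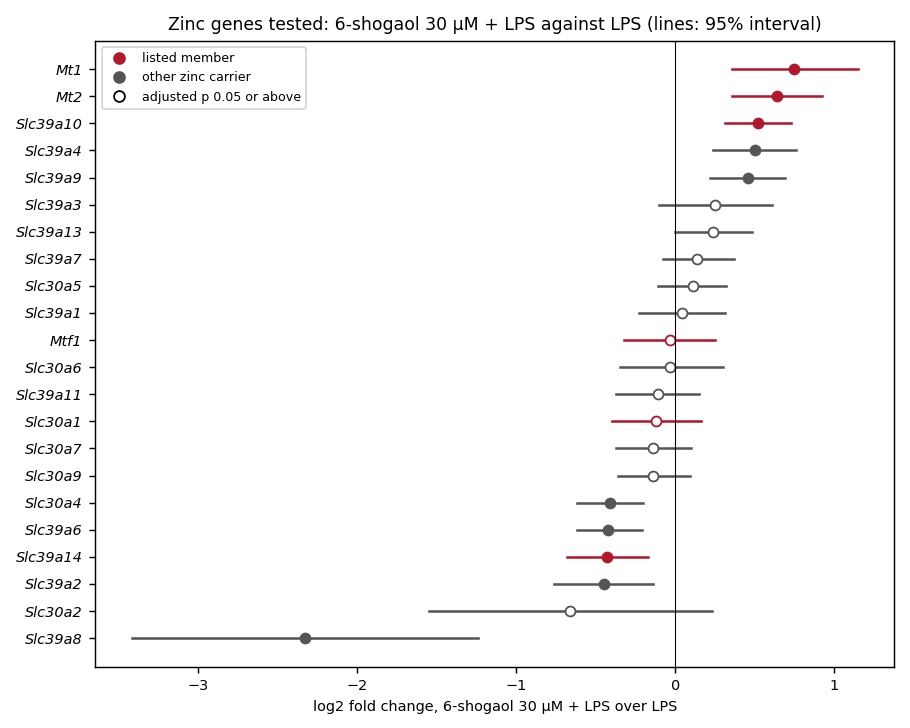
Log2 fold change of the 6 members and the 16 other tested zinc genes with 30 µM 6-shogaol and LPS over LPS alone, with 95% intervals. Mt1, Mt2 and Slc39a10 lay at the top of the list and Slc39a8 at the bottom, with importers (Slc39) on both sides of 0.

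A list of 18 genes of metal and MTF-1 biology, including iron carriers and the glutathione and antioxidant genes that share regulators with the metallothioneins, had 17 tested members. With 30 µM 6-shogaol against LPS, 8 rose and 3 fell (median log2 fold change 0.29), where 12.6% of all genes were called higher and 12.8% lower. The largest changes were those of Nqo1, a quinone reductase (18 and 19 counts, against 4 and 7 with LPS alone, 1.87 on the log2 scale), Gclc and Gclm, the subunits of the enzyme that starts glutathione synthesis (1.20 and 1.14), and Ndrg1, a stress- and iron-responsive gene that fell (-1.05). Nqo1 had at most 12 counts in any library of another group. It thus passed the count filter only through the 30 µM 6-shogaol libraries, where it was high. Its call carries no weight here, although it is counted among the 8 that rose. Between LPS and untreated cells 9 of the 17 rose and 1 fell, where 973 of all 12705 genes were called higher and 528 lower (11.8% in all).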

How the data were processed

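RNA of 12 BV2 libraries was sequenced as stranded paired-end mRNA libraries, per the labels' protocols. The authors deposited 1 RSEM table per library, which holds the expected count (estimated reads per gene, 7.03% of values not whole), the TPM, and gene length and effective length in bases, per the file headers. They also deposited a table of normalized signal per gene, whose scaling is not stated. The submitters' processing notes name the build GRCm38, the aligner STAR 2.7.11b, the quantifier RSEM 1.3.3 and the trimmer Trimmomatic 0.39, besides FastQC 0.12.1 and DESeq2 1.44.0.

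Expected counts were rounded, filtered with filterByExpr, scaled by TMM and fitted in edgeR 4.0.16 (R 4.3.3) with 6 group means over all 12 libraries, without covariates (6 residual degrees of freedom, common biological coefficient of variation 9.45%). The quasi-likelihood F test with robust dispersion was run for 14 contrasts, 2-sided, with Benjamini-Hochberg adjustment over 12705 genes. A gene was called at an adjusted p under 0.05. Alternatives were DESeq2 1.42.0, limma 3.58.1 on log2 of the deposited signal (pseudocount 1, mean of at least 10), other scalings, no filter, fragment length as a covariate, the compared groups only, a replicate block, and each library left out. An offset by effective length was chosen after seeing the data. Mean fragment length was taken from length minus effective length. Symbols and positions came from GENCODE M21 (97.8% of identifiers matched), and promoters from RefSeq (5 of 6 members matched).

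The members and lists were chosen with earlier results of these data known. Named were all members, the genes of the wider zinc list called in a contrast with LPS or between compounds, the 4 genes of the metal list that changed most with 30 µM 6-shogaol, and for each member the 3 genes of at least 10 mean CPM whose log2 CPM correlated best with it.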

Additional observations from a re-analysis of the deposited data

Results flagged for a closer look

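The effect of the dose step on Slc39a10 differed between the compounds by the test of the difference itself. From 10 to 30 µM the log2 fold change was 0.61 (SE 0.10) with 6-shogaol and -0.09 (SE 0.10) with 6-gingerol, a difference of 0.70 (SE 0.14, edgeR adjusted p = 0.00817). Its libraries had 55.6 and 61.9 CPM at 30 µM and 38.4 and 38.6 CPM at 10 µM 6-shogaol, and 39.9 and 40.4 CPM at 30 µM and 41.2 and 44.0 CPM at 10 µM 6-gingerol. The call was lost without replicate 2 of 10 µM 6-shogaol (adjusted p = 0.0512) and without replicate 2 of 30 µM 6-shogaol (0.0525).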

How the results depend on the processing

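In the 10 contrasts other than those of a compound against untreated cells, the members gave 804 values under the alternatives run: 29 calls were lost, 16 were gained, 0 called values turned sign and 63 uncalled ones did. With 30 µM 6-shogaol the number of called members stayed at 2 to 3 against LPS, 1 to 4 against 30 µM 6-gingerol and 1 to 3 against 10 µM when 1 library was left out, where the lone library of a group is assumed to vary like the others. The same omissions gave 0 to 2 called members for LPS against untreated, 0 to 3 for the difference of dose steps, and against untreated 0 to 2 for each 6-gingerol dose and 0 to 3 for each 6-shogaol dose. For LPS against untreated (1 called), no count filter and the fragment length covariate gave 2, and the compared groups alone 0. For the difference of dose steps (1 called), library totals gave 2, and no filter, DESeq2, the covariate and the compared groups alone gave 3. Against untreated, 10 µM 6-gingerol (0 called) gave 2 with library totals and with no filter and 1 with DESeq2, and 30 µM 6-gingerol (1 called) gave 2 with no filter, DESeq2 and the covariate, and 0 with the compared groups alone. For 10 µM 6-shogaol (1 called) no filter gave 2, and the covariate, the compared groups alone and limma gave 0, and for 30 µM 6-shogaol (2 called) the compared groups alone, limma and the length offset gave 1. The causes were not tested. Calls over all genes spanned, over all alternatives, 1827 to 4021 for 30 µM 6-shogaol against LPS (3222 in the fit reported), 1807 to 3452 against 30 µM 6-gingerol (3171), 960 to 3561 for the 6-shogaol dose step (2463), 300 to 1557 for the difference of dose steps (1038) and 768 to 1772 for LPS against untreated (1501). Scaling by library totals moved the median of all genes to -0.15 for the difference of dose steps, where Slc39a10 then stood at 0.55, to -0.12 for 10 µM 6-gingerol against untreated and to 0.11 for 6-shogaol against 6-gingerol at 10 µM. With library totals 53.3% of the calls for LPS against untreated were higher (64.8% with TMM), 30.4% for 6-shogaol against 6-gingerol at 10 µM (12.3%), 37.8% for the 6-shogaol dose step (50.8%), 25.7% for the difference of dose steps (52.2%) and 42.2% for 10 µM 6-gingerol against untreated (63.0%). Replicate numbers showed no clear pairing of the libraries. The difference in log2 CPM of replicate 1 minus replicate 2 of a group was correlated between groups over the tested genes. Over 15 group pairs this correlation was -0.31 to 0.18, with 5 over 0.1. The fit with a replicate block changed no member's call, with 4 members called for 30 µM 6-shogaol against LPS and 1 for LPS against untreated. With 2 libraries a group, the intervals above are the limit on what could be seen.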

Other observations

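Mt1 and Mt2 followed each other over the 12 libraries with a Pearson correlation of log2 CPM of 0.94, but neither was the other's closest match among 8913 genes of at least 10 mean CPM: Mt2 was 10th for Mt1, and Mt1 was 15th for Mt2. The libraries share their groups, so these correlations describe the order of the groups as much as that of the genes. The closest for Mt1 were Srsf7, a splicing factor (0.978), Gpr65 (0.957) and Tardbp, an RNA-binding protein (0.957), and for Mt2 Scrn3 (0.967), Tsnax (0.963) and Ncbp2 (0.958). Slc39a10 was closest to Polr2b, a subunit of RNA polymerase II (0.977), Slbp (0.974) and S100a11 (0.966), and Slc39a14 to Slc41a2, a magnesium carrier (0.957), Fem1c (0.951) and Dpf2 (0.948). Slc30a1 was closest to Cd82 (0.900), Ubl3 (0.896) and Pim1 (0.886), and Mtf1 to Npepps (0.920), Pias4 (0.919) and Pex14 (0.903).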
